A study of Mus musculus with 12 samples.

Results

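Many mouse genes give rise to several transcripts, and the results here concern how the RNA of 1329 genomic loci was divided between them in sorted cells of the newborn kidney. Transcripts that overlapped on the same strand were joined into 26699 loci, 11909 of which held 2 or more transcripts. A locus was kept when it lay on chromosomes 1 to 19, held 2 to 4 transcripts and had at least 200 fragments in each of the 12 libraries. Of 9451 loci that met the first 2 conditions, 1329 also met the third: 655 with 2 transcripts, 385 with 3 and 289 with 4. The loci were thus selected on their fragment totals, and on no other measured value. The measurement was each transcript's share of its locus, in percent of the locus's fragments, which the rule did not read. At the threshold, 11 loci had 200 fragments in their smallest library, and 8 loci with 199 fell just outside. The median smallest library sum of a kept locus was 392 fragments. The kept loci took between 29.5% and 35.5% of the fragments of a library.

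A gene can make different RNAs by starting transcription at alternative promoters, by joining exons differently, or by ending at alternative polyadenylation sites. Such isoforms can differ in the protein they encode or in their untranslated regions, and the proportions can shift during development without any shift in the gene's total output. Eed, named in the series title, is a core subunit of Polycomb repressive complex 2, which methylates histone H3 on lysine 27 and keeps developmental genes silent. Six2 is the transcription factor that marks the progenitors of the nephron in the cap mesenchyme of the kidney.

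RNA came from mouse kidney cells at postnatal day 0 that carried the R26R-tdTomato reporter. Six2-expressing cells were isolated by flow cytometry, RNA was extracted with TRIzol, and cDNA was made with the SMART-Seq v4 kit and turned into libraries with a NEBNext kit. The titles divide the libraries into 4 control low, 4 mutant low, 2 control high and 2 mutant high. The signal behind high and low is not stated, and the labels used here give neither the mutant allele nor whether libraries came from separate animals. The p-values therefore measure the spread between these libraries, which may be technical. The tissue label could not be set against marker genes, because the deposited table gives UCSC transcript identifiers with mm9 positions and no gene symbols. Loci are accordingly named by position, as deposited, and 4 transcripts also by identifier.

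Library totals ran from 4549011 to 12365078 fragments. Both control high libraries stood apart in the share of fragments on the mitochondrial chromosome, 4.51% and 10.3% against 0.494% to 1.96% in the other 10. Control high 2 had the smallest total, 4549011, while control high 1, at 6249263, was above mutant low 2, at 5948488. Among the low libraries, the 4 whose sample description carries a number above 7 had 8580551 to 12365078 fragments, and the 4 with a number of 7 or below had 5948488 to 8092510. These 2 sets also differed in transcript shares, as described further on. Fragments are estimates divided between transcripts by the authors' software, so a share carries the uncertainty of that division as well as counting error. Of the 1329 loci, 326 (24.5%) were overlapped by a locus on the other strand, and reads of the strands cannot be told apart in libraries that do not mark strand.

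Most loci relied on a single transcript. In 766 of 1329 loci, 1 transcript held at least 90% of the fragments in every group mean. The most used transcript was the same in all 4 group means at 1205 loci and in all 12 libraries at 1052. It differed between group means at 124 loci, only 18 of which were called in any of the 5 comparisons described below. A further 398 of the 3621 transcripts had no fragment in any library.

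Replicate libraries of a group differed little at most loci and by a large share at a minority. The range of a locus's most variable share within a group had a median of 2.95 percentage points in control low and 2.62 in mutant low, over 4 libraries each. It was 1.29 points in control high and 0.786 in mutant high, where only 2 libraries set the range. At 101 loci in control low and 111 in mutant low, however, the share ranged over more than 50 points, and the widest range was 100 points. Together, 154 loci (11.6%) ranged that widely in at least 1 of the low groups.

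The share of loci with wide ranges varied with how the 2 most used transcripts differed in annotation. Where their starts differed and their ends did not, 64 of 374 loci (17.1%) ranged over more than 50 points in a low group. Where start and end were both the same, so that only internal structure differed, 58 of 393 (14.8%) did. Where only the end differed the number was 20 of 359 (5.57%), and where both differed it was 12 of 203 (5.91%). That order also held in control low, but not in mutant low, which had 11.2% of loci with the same start and end, 10.4% with different starts, 5.29% with different ends and 4.43% with both different. In the high groups, too, the class with the same start and end came first, at 5.34% in control high and 4.07% in mutant high.

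**Figure D1:**
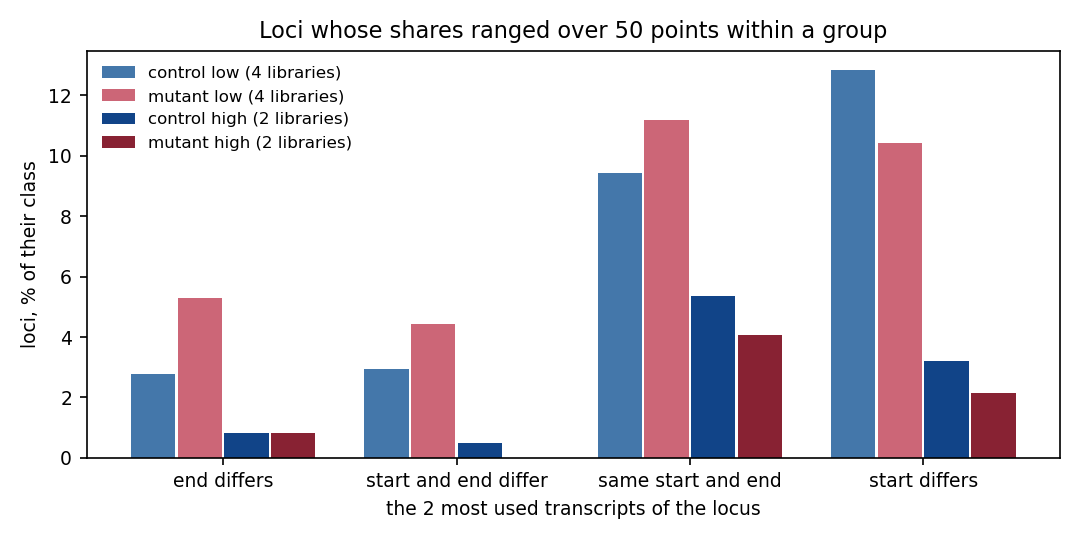
Loci whose most variable transcript share ranged over more than 50 percentage points between libraries of a group, as a percent of the loci in each class of annotation difference between the 2 most used transcripts (bars, 1 per group). In control low, 12.8% of loci with different starts and 9.41% with the same start and end ranged that widely, against 2.79% with different ends. The high groups hold 2 libraries each, so their ranges are smaller by construction.

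Differences between groups were tested at the 931 loci with at least 2 transcripts above a low-count filter, in 1 fit of all 5210 loci tested. The test was edgeR's quasi-likelihood test of differential transcript use, and a locus was called at a Benjamini-Hochberg adjusted p under 0.05 over all 5210. Unless said otherwise, an adjusted p below is that of the locus, not of the transcript whose share is printed. Among loci eligible for naming without it, that transcript's own adjusted p was under 0.05 at few. In the order of the comparisons below, these were 1 of 3, 1 of 9, 2 of 27, 0 of 10 and 1 of 6. The other 398 loci had fewer than 2 transcripts above the filter and were not tested. The share of tested loci that was called is given beside the same percentage over all loci tested, because a percentage near that background says nothing particular about these loci.

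**Figure D2:**
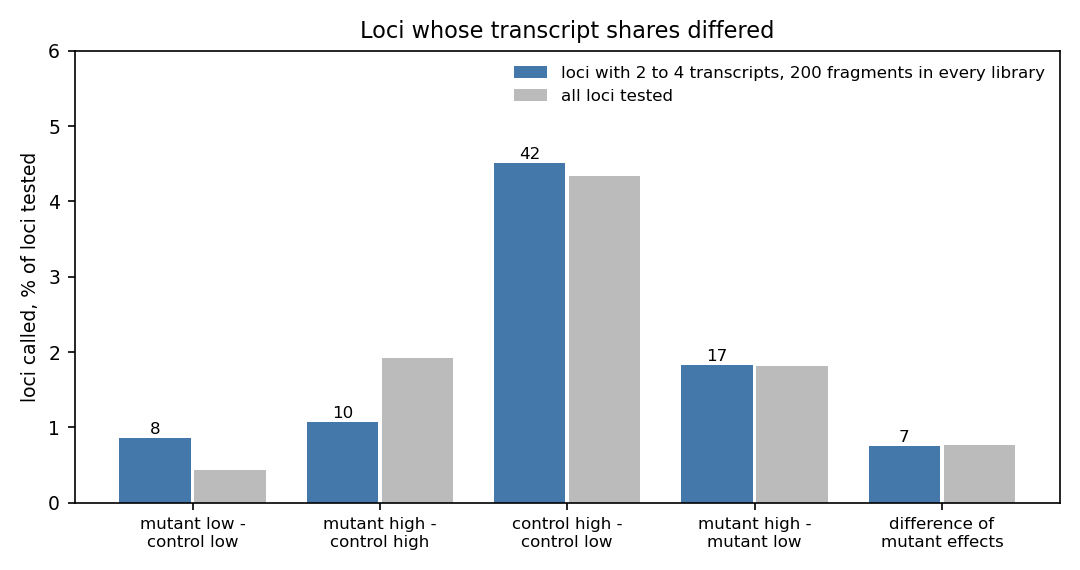
Loci called at an adjusted p under 0.05 in each of the 5 comparisons, as a percent of the 931 loci with 2 to 4 transcripts tested (blue, with the number called) and of all 5210 loci tested (grey). The highest bars are those of control high against control low, 4.51% and 4.34%, and the blue and grey bars differ by less than 1 percentage point in each comparison.

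Mutant against control in low cells gave few calls. Transcript shares differed at 8 of 931 loci (0.859%, against 0.441% of all loci tested). Of these, 5 had a largest share difference of at least 10 points (0.269% of all loci tested passed both conditions), and 3 of the 5 also had shares that did not overlap between the groups (0.154% of all loci). The median over the 931 tested loci of the largest share difference was 1.91 points, against 5.68 over all loci tested, which include shallower loci. At an unadjusted p under 0.05 there were 151 loci, and the other comparisons of the same fit gave 146 to 208. The unadjusted count was not made over all loci tested, so it says nothing particular about these loci. Without control low replicate 2, 3 or 4 the count fell to 2, 2 and 3, without mutant low replicate 3 or 4 to 4 and 5, and without mutant high replicate 2 to 4. Of the 8 called loci, DESeq2 also called 2 and limma, on log ratios of shares, called 0.

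The clearest difference between mutant and control low cells was an exchange between transcripts with neighbouring annotated starts at chr6:113392588-113398221 on the plus strand. Its transcripts uc009dge.1 and uc009dgf.1 share an end and are annotated to start 25 bases apart. Their exons were not read here, so a change of start site itself was not measured. The share of uc009dgf.1, the transcript with the downstream start, was 99.0%, 99.5%, 99.6% and 98.8% in control low libraries 1 to 4. In mutant low libraries it was 12.1%, 66.8%, 32.9% and 24.8%. Every mutant low library lay below every control low library, and the mutant libraries were spread far more widely. The means were 99.2% ± 0.378 (SD, n = 4) in control low and 34.2% ± 23.4 (SD, n = 4) in mutant low, a difference of -65.1 points (edgeR adjusted p = 0.00667). The fragments went to uc009dge.1, whose share was 0.0653% ± 0.0865 (SD, n = 4) in control low and 64.9% ± 23.1 (SD, n = 4) in mutant low.

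The high libraries, sorted from the same genotypes, showed the same pattern at this locus. The share of uc009dgf.1 was 99.8% and 93.2% in control high and 0.0293% and 9.74% in mutant high, so the genotypes did not overlap there either. The difference of -91.6 points did not pass the test (edgeR adjusted p = 0.0639). The locus held 768 to 1653 fragments in each library. With limma the low comparison was not called, and without control low replicate 3, or without the 4 low libraries of description number above 7, edgeR lost the call too.

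**Figure D3:**
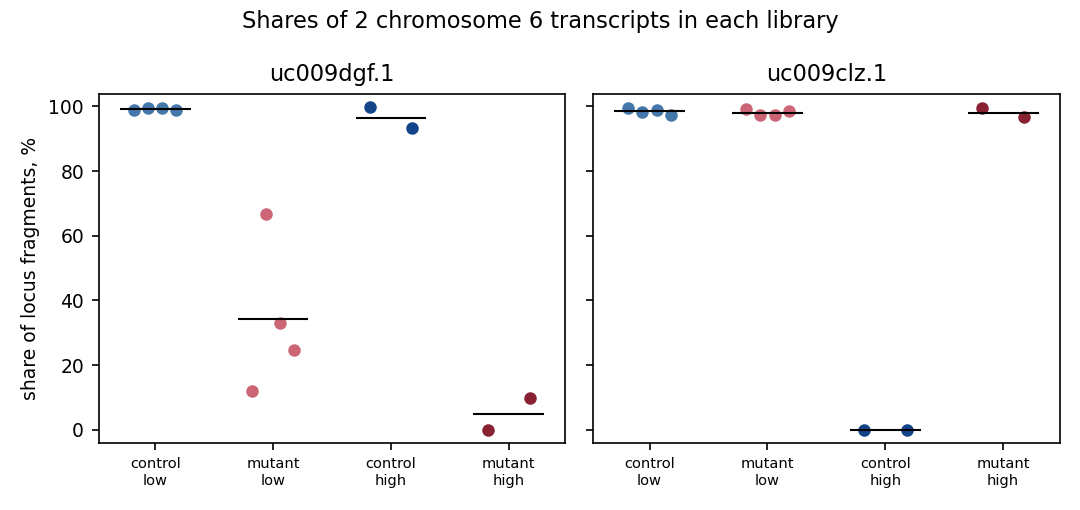
Share of locus fragments (percent) of uc009dgf.1 and uc009clz.1, both on chromosome 6, in each of the 12 libraries (points), with group means (lines). uc009dgf.1 is at or above 93.2% in all 6 control libraries and at or below 66.8% in all 6 mutant libraries, whereas uc009clz.1 has no fragment in the 2 control high libraries and lies between 96.9% and 99.6% in the other 10.

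At chr7:3581586-3594086 on the plus strand, a transcript that was nearly absent from control low cells took part of the locus in mutant low cells. Its share was 0.00861%, 0.0238%, 0.00933% and 0.00458% in the control low libraries. The mutant low libraries had 40.3%, 6.19%, 25.7% and 27.3%, all above the control values (difference 24.8 points, edgeR adjusted p = 0.0366). In the high groups it followed no genotype, with 77.5% and 0.0237% in the control libraries and 0.0148% and 29.2% in the mutant libraries. The transcript that lost the share has the same annotated start and end. The call was lost when any 1 of 7 low libraries was left out, and with DESeq2 and limma. It was also lost without the 4 low libraries of description number above 7, and when transcripts of the same span were merged.

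The third locus, chr5:52541447-52581758 on the minus strand, had control low libraries that varied widely and mutant low libraries that did not. The share of its main transcript was 18.1%, 96.4%, 80.5% and 88.4% in control low and 98.4%, 98.7%, 99.6% and 99.3% in mutant low (difference 28.2 points, edgeR adjusted p = 3.08e-05). It lay between 96.8% and 98.3% in the 4 high libraries. The call was kept in 12 of 12 fits that left out 1 library. It was lost with DESeq2 and limma, when only the low groups were fitted, and when transcripts with the same annotated start and end were merged. The call was also lost without the 4 low libraries of description number above 7 and within the low libraries up to 7. A fit of the low libraries with a term for that number lost it too. Among the other 5 called loci, 2 owed their difference to 2 mutant low libraries each and 3 differed by less than 10 points.

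Mutant against control in high cells rested on 2 libraries a group. Shares differed at 10 of 931 loci (1.07%, against 1.92% of all loci tested), and at 9 of them by at least 10 points (1.57% of all) without overlap between groups (1.55% of all). The median largest difference over the tested loci was 3.42 points, against 9.43 over all loci tested. DESeq2 called 17 loci, among them 9 of the 10, and limma called 6, among them 5 of the 10. None of the 10 was among the 8 loci called in low cells, and the share difference had the same sign in low cells at 4 of the 10. The count rose to 36 without control high replicate 1 and to 16 without control high replicate 2, and fell to 6 without control low replicate 4 and to 5 without mutant low replicate 4.

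A complete exchange of 2 transcripts was seen at chr6:83004646-83007676 on the plus strand, in control high cells. The transcripts uc009cly.1 and uc009clz.1 have the same annotated start and end and so differ only inside the locus. The share of uc009clz.1 was 99.6%, 98.2%, 98.9% and 97.4% in control low, 99.3%, 97.3%, 97.2% and 98.5% in mutant low, and 99.4% and 96.9% in mutant high. Both control high libraries listed it at 0, of 3151 and 1724 locus fragments. A count of 0 among so many fragments allows shares of up to 0.0952% and 0.174%, by counting error alone. In their place uc009cly.1 held 100% and 99.9%, against 0.448% to 3.15% in the other 10 libraries.

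The difference at that locus was 98.1 points between mutant high and control high (edgeR adjusted p = 1.1e-07) and -98.5 points between control high and control low (adjusted p = 1.26e-08). It was called under every alternative that could be fitted, 23 of 23 and 24 of 24. Merging transcripts with the same start and end removes the locus from the test, since those 2 are then 1 feature. Between mutant low and control low the difference was -0.418 points (adjusted p = 1). On the minus strand, chr6:83001261-83005267 overlaps this locus by 621 bases and was itself called between control high and control low. The mitochondrial share was also highest in these 2 libraries, and its part in the result was not tested.

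Both mutant high libraries lay below every other library at chr2:60047992-60086442 on the plus strand. The longest transcript of the locus held 79.6%, 99.8%, 83.7% and 66.5% in control low, 80.6%, 75.2%, 99.7% and 88.0% in mutant low and 100% and 99.6% in control high. Mutant high had 17.7% and 18.6%, and the fragments went to a transcript with a start further downstream and the same end. The difference from control high was -81.6 points (edgeR adjusted p of the locus = 0.0364). No single transcript passed there, and the gaining one had a transcript adjusted p of 0.291 (edgeR). Although the difference from mutant low was -67.7 points without overlap, it did not pass the test (adjusted p = 0.224). The call against control high was lost in 10 of 12 fits that left out 1 library and with limma.

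A like pattern at chr13:9093150-9172336 on the plus strand involved transcripts with the same annotated start and end. The share of one was 0.650% and 0% in mutant high, against 62.7% and 42.6% in control high, 57.1%, 63.3%, 100% and 83.6% in mutant low, and 47.4%, 70.4%, 26.8% and 69.3% in control low. Mutant high differed by -52.3 points from control high (edgeR adjusted p = 0.0349) and by -75.7 points from mutant low (adjusted p = 0.0166). The low groups overlapped and spread widely. DESeq2 did not call the difference from control high, and 8 of 12 fits that left out 1 library lost it.

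Intermediate shares were seen in several groups at 3 loci. At chr7:52118437-52125158 on the minus strand the longest transcript held 87.2% and 66.4% in control high and 51.3% and 7.74% in mutant high (difference -47.3 points, edgeR adjusted p = 0.00686). Mutant low libraries at this locus ranged from 27.6% to 82.4%, a spread as wide as the difference. At chr9:108250161-108294860 on the plus strand the shares were 98.2% and 92.4% in control high and 75.5% and 47.4% in mutant high (difference -33.8 points, adjusted p = 0.0169). At chr7:52397209-52409908 on the minus strand they were 87.8% and 89.3% against 67.0% and 59.7% (difference -25.2 points, adjusted p = 0.0463). In each of the 3 the control high libraries were the highest group, with means of 76.8%, 95.3% and 88.6%. The call of the last was kept in 1 of 12 fits that left out a library. Without either control high library the calls of the other two were lost, and that on chromosome 9 also without mutant high replicate 2.

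High against low cells in controls gave the most calls. Shares differed at 42 of 931 loci (4.51%, against 4.34% of all loci tested). Of these, 31 differed by at least 10 points (3.72% of all loci passed both conditions) and 27 of the 31 did so without overlap (3.4% of all loci). The 31 differences had a median of 28.7 points and reached 98.5. The most used transcript changed at 8 of the 31. By number of transcripts, 12 of 376 tested loci with 2 transcripts were called (3.19%), 15 of 306 with 3 (4.90%) and 15 of 249 with 4 (6.02%). The percentage also rose for mutant high against control high (0%, 1.63% and 2.01%). In the remaining comparisons it was highest at 3 transcripts, as for mutant high against mutant low (1.33%, 2.94% and 1.20%). The same split over all loci was not made. DESeq2 called 49 loci, among them 30 of the 42, and limma called 14, among them 11 of the 42. Without control low replicate 3, control low replicate 4 or control high replicate 2 the count fell to 23, 26 and 25. With the description number as a block, over the 8 libraries whose number occurs in high and low cells, it was 9, and 4 of the 6 loci named here lost the call. The control high libraries were also those with the highest mitochondrial shares, and 1 of them had the smallest total. The part of depth and RNA quality in these calls was not tested. In bulk RNA, fewer cells of one type and less RNA from each of them cannot be told apart, and shares of a locus mix the cells of a library in the same way.

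Transcripts with different annotated starts were used at chr9:110624588-110649649 on the minus strand. A transcript with the start furthest upstream held 59.5% and 59.1% in control high, against 1.94%, 0.0704%, 1.41% and 0.374% in control low. The groups did not overlap, with a difference of 58.3 points (edgeR adjusted p = 0.0175). The mutant high libraries held 29.2% and 0.748%, and mutant low 0.236% to 2.93%, so 1 mutant high library lay between and 1 with the low cells. The call was lost without control low replicate 2, control low replicate 4 or control high replicate 2.

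Shares moved between long and shorter transcripts at chr1:121441609-121545577 on the minus strand. The longest held 86.5%, 82.5%, 67.4% and 56.6% in control low and 5.61% and 8.23% in control high, a difference of -66.3 points (edgeR adjusted p = 0.0120). Mutant high, at 49.6% and 35.0%, lay below control low but did not pass the test against mutant low, which had 82.4%, 83.0%, 61.4% and 50.2% (adjusted p = 0.698). In both low groups libraries 3 and 4 were lower than libraries 1 and 2. Of 2 transcripts that end upstream of the long one's end, 1 held 38.5% and 26.5% in control high and the other 55.8% and 65.2%. DESeq2 and limma also called this locus, but the call was lost without either control high library and with the description number as a block.

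At chr17:25975782-25998460 on the minus strand, 2 transcripts with little overlap traded places. The upstream one held 62.5%, 68.8%, 71.5% and 61.9% in control low and 27.0% and 9.11% in control high (difference -48.1 points, edgeR adjusted p = 0.00614). Such transcripts may belong to different genes, which a locus built from overlap cannot separate. The smallest library sum there was 208 fragments. The call was lost without control high replicate 2, mutant high replicate 1 or mutant high replicate 2, with no filter on low counts and with the description number as a block.

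Control low libraries 3 and 4 stood apart from libraries 1 and 2 at 2 further loci named for this comparison. At chr16:33955097-33967089 on the minus strand, control high libraries had 0.00492% and 0.00306% of a transcript that control low libraries held at 0.0378%, 15.5%, 87.4% and 85.4% (edgeR adjusted p = 0.0252). At chr6:83001261-83005267 the shares were 2.38% and 14.1% in control high and 38.6%, 26.7%, 72.7% and 74.8% in control low (adjusted p = 0.0175). Libraries 3 and 4 carry description numbers above 7 and were the high ones at both loci, and both calls were lost when the 4 low libraries with such numbers were left out. The first call was also lost without either control high library, and both without control low replicate 3. Over all 42 called loci, 15 were called in the fit without those 4 libraries.

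High against low cells in mutants gave 17 calls among 931 loci (1.83%, against 1.82% of all loci tested). Of these, 11 differed by at least 10 points (1.44% of all) and 10 of the 11 did not overlap (1.29% of all). DESeq2 called 21 loci, among them 11 of the 17, and limma called 1, which was not among them. None of the 17 was among the 42 called in controls, although the share difference had the same sign in controls at 14 of the 17. Such agreement was not counted over all loci tested. In both comparisons the low libraries are split by description number, as described further on, and the part of that split was not tested. Whether the 2 comparisons differ is tested below. The count was 27 without mutant high replicate 2, and 9, 8 and 10 without mutant low replicate 3, mutant low replicate 4 and control high replicate 1. With the description number as a block it was 1, and 5 of the 6 loci named here lost the call.

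All 4 high libraries lay below all 8 low libraries at chr8:73118379-73121189 on the plus strand. One transcript held 66.6%, 47.3%, 44.4% and 59.0% in control low and 52.4%, 77.0%, 67.3% and 65.4% in mutant low. It held 36.1% and 29.2% in control high and 25.3% and 32.6% in mutant high. The difference passed the test in mutants (-36.6 points, edgeR adjusted p = 0.0368) and not in controls (-21.6 points, adjusted p = 0.19). Both transcripts have the same annotated start and end, and the call was lost in 9 of 12 fits that left out 1 library.

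Different kinds of change were seen in mutant high cells at 2 loci on chromosome 4. At chr4:47366176-47427796 on the plus strand a transcript held 71.3% and 69.6% in mutant high and 99.8% to 99.9% in all mutant low libraries (edgeR adjusted p = 0.0293). It held 99.7% to 99.8% in the remaining libraries except control low replicate 1, at 21.7%. That call was kept in 5 of 12 fits that left out 1 library, and was lost with limma and without the 4 low libraries of description number above 7. At chr4:46188093-46209183 on the minus strand a transcript with the same start and a nearer end was almost absent from mutant high, at 0.00113% and 0%. Mutant low libraries held it at 11.2%, 5.72%, 73.3% and 22.7% (adjusted p = 0.0152), and control low at 4.77%, 2.17%, 15.8% and 11.1%. It was low in control high as well, at 1.51% and 0%, and the call was lost without mutant high replicate 1 and with limma. The call was also lost without the 4 low libraries of description number above 7 and with that number as a block. Low libraries with a number above 7 held more of this transcript, by 24.8 points.

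The remaining named loci each depended on a few libraries. At chr3:159502658-159598139 on the plus strand the main transcript held 36.9% and 84.2% in mutant high, against 88.3% to 94.7% in mutant low (edgeR adjusted p = 0.00393). One mutant high library carried most of that difference, because a long transcript held 48.2% there and 0% in the other 11 libraries. That long transcript did not pass the low-count filter, so it counts in the shares but was not in the test. Without mutant high replicate 1, or without either control high library, the call was lost. At chr12:36883710-36923878 on the plus strand mutant high held 98.7% and 98.3%, and mutant low 92.4%, 94.1%, 41.3% and 57.3% (adjusted p = 0.0489). Mutant low libraries 3 and 4 were again the ones set apart, and 10 of 12 fits that left out 1 library lost the call.

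**Figure D4:**
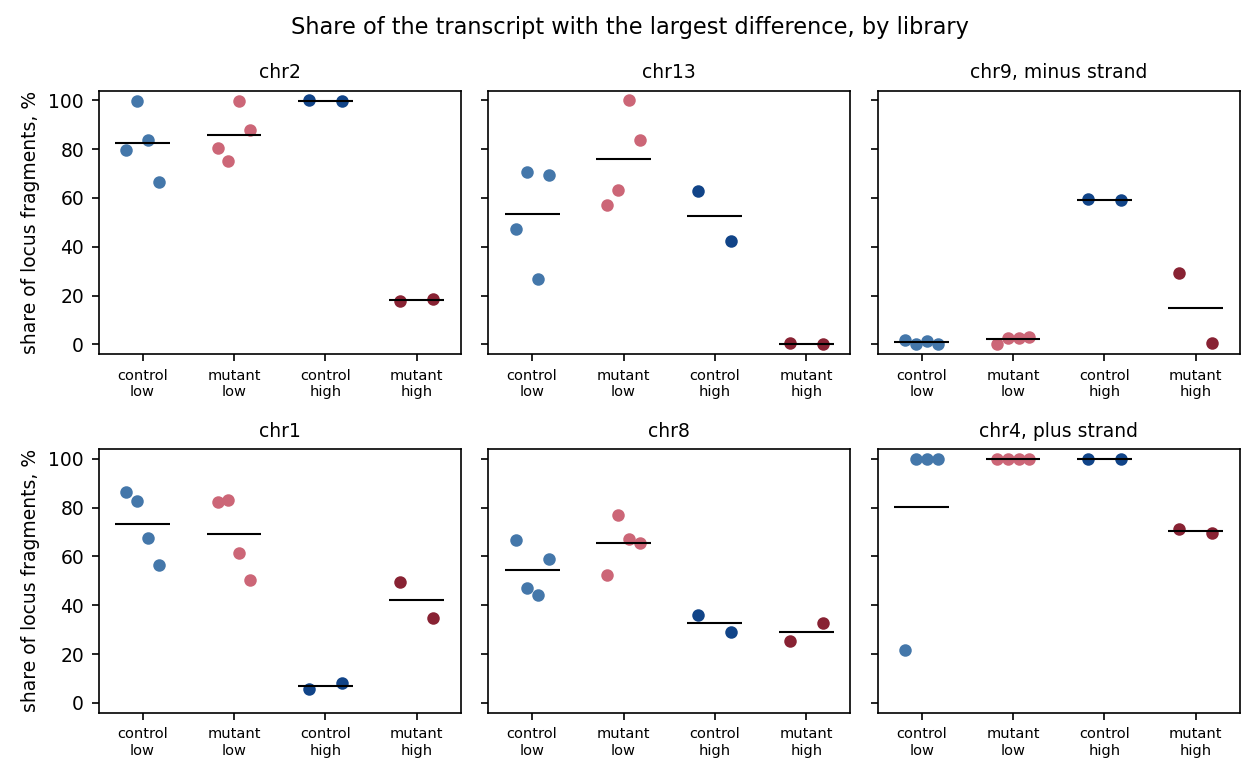
Share of locus fragments (percent) of the transcript with the largest difference at 6 named loci, in each library (points) with group means (lines). Mutant high stands apart from all other groups on chr2 and chr13, control high on chr9 and chr1, and all 4 high libraries lie below the low libraries on chr8. On chr4 mutant high lies at 71.3% and 69.6%, while 1 control low library lies at 21.7%.

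At 7 of 931 loci the effect of the mutant depended on the sorted population (0.752%, against 0.768% of all loci tested), as tested by an interaction in the same fit. The difference of effects was at least 10 points at 6 of the 7 (0.633% of all loci). The chromosome 6 locus of uc009clz.1 had the largest, 98.5 points (edgeR adjusted p = 2.53e-07), through the 2 control high libraries. It was the only one of the 7 also called by both DESeq2 and limma. The count of 7 became 12 without control high replicate 1, 3 without control low replicate 3 or mutant low replicate 1, and 2 without mutant high replicate 1.

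Each of the other 5 differences of effects was called in at most 9 of its 23 or 24 alternatives. At chr7:52118437-52125158 the difference was -53.8 points (edgeR adjusted p = 0.0442) and at chr4:47366176-47427796 it was -48.9 points (adjusted p = 0.0411). At chr11:95133166-95171560 on the minus strand 1 transcript held 32.2% and 90.2% in control high and 30.9% and 22.7% in mutant high (difference of effects -39.7 points, adjusted p = 0.0411). That share difference rested on 1 control high library. The call was lost without it, and was kept in only 4 of 12 fits that left out 1 library. The p-value is that of the locus, and the lowest transcript adjusted p for the difference of effects was 0.0769 (edgeR). It belonged to another transcript, with mean shares of 2.95% in control low and 0.00157% in mutant low. At chr5:52541447-52581758 the difference was -28.9 points (adjusted p = 0.0324). At chr11:69156774-69182928 on the minus strand a short transcript held 10.7% and 14.9% in control high, whereas no other library exceeded 0.674%. The full-length transcript of that locus accordingly had a difference of effects of 12.9 points (adjusted p = 0.0431).

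The transcripts that exchanged fragments differed in annotation in various ways. Among the 42 loci called between control high and control low, the gaining and losing transcripts differed in start alone at 12, in end alone at 8 and in both at 10, and had the same start and end at 12 (28.6%). Over the 931 tested loci, the 2 most used transcripts had the same start and end at 264 (28.4%). Among called loci it was 8 of 17 (47.1%) for mutant high against mutant low and 5 of 8 (62.5%) for mutant low against control low. For mutant high against control high it was 3 of 10 (30%), and for the difference of mutant effects 4 of 7 (57.1%). The 2 most used transcripts need not be the gaining and losing ones, and no excess was tested. When transcripts with the same annotated start and end were merged before the test, 3 of the 8 low-cell calls, 7 of the 10 high-cell calls, 31 of the 42 control calls and 8 of the 17 mutant calls were made again. Of the same calls, only 5, 8, 34 and 12 could still be tested, because merging leaves some loci with 1 feature.

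A split of the low libraries by the number in the sample description gave more loci than the split by genotype. The 4 low libraries with a number above 7 (control low 3 and 4, mutant low 3 and 4) were set against the 4 with 7 or below, with genotype in the fit. This split was chosen after the shares had been seen, so its counts are a description. The labels do not say what the number stands for. Of 693 loci tested, 89 passed an adjusted p under 0.05 (12.8%, against 10.2% of all 3514 loci tested in the low libraries). At 63 the difference was at least 10 points (8.14% of all loci), and at 50 of the 63 the 2 sets did not overlap (6.86% of all loci). All 63 differences had the same direction in control low and in mutant low. At the 50 without overlap that follows from the selection. The 63 were chosen from these same libraries for a common difference, so the agreement is no separate evidence.

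At chr14:99433762-99445355 on the minus strand, for example, 2 transcripts whose starts lie close together replaced each other. One held 0.00192% and 0.0311% in control low 1 and 2 and 15% and 0.0743% in mutant low 1 and 2. It held 100% in control low 3 and 4, and 97.1% and 100% in mutant low 3 and 4. All 4 high libraries had 0.00311% to 0.794%. At chr17:46872661-46889161 on the minus strand, a transcript with at most 0.0182% in the low libraries of number 7 or below and at most 0.00155% in the high libraries held 73.8%, 64.5%, 67.0% and 53.7% in the other 4. At chr19:7300157-7315712 on the minus strand a short transcript ending at the same place held 12.4% to 37.8% in low libraries of number 7 or below, 92.7% to 95.3% in those above 7 and 18.4% to 27.2% in the high libraries.

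The high libraries lay with the low libraries of number 7 or below, irrespective of their own number. Of the 63 loci, control high 1 was nearer to that set's mean at 52, control high 2 at 56, mutant high 1 at 55 and mutant high 2 at 46. Control high 2 carries the number 8. Each set held 2 libraries of each genotype, so the mutant comparison in low cells was balanced over the split. Its calls still depended on it. Of the 8 loci called there, 0 were called in the fit without the 4 low libraries above 7. With a term for those libraries, 4 of the 8 were called. Comparisons of high with low cells set the high libraries against a mixture of both sets, and 3 of the 42 loci called in controls and 3 of the 17 called in mutants were also among the 89. The 2 sets differ in library total, and the part of depth in this pattern was not tested. The plot of shares against the number in the sample description shows the break between 7 and 8 at 6 of these loci.

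**Figure D5:**
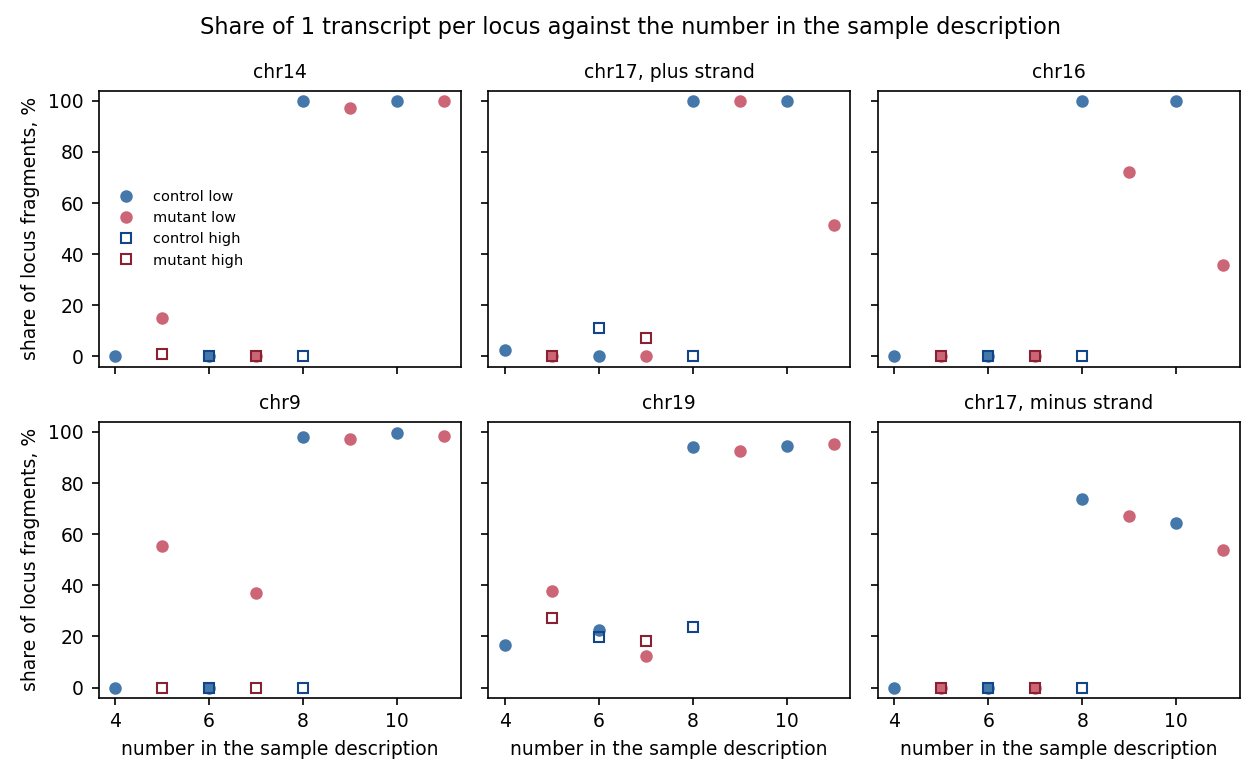
Share of locus fragments (percent) of 1 transcript at each of 6 loci against the number in the sample description, for low (filled circles) and high libraries (open squares) of control (blue) and mutant (red) samples. Low libraries with numbers of 8 and above lie apart from those with 7 and below at all 6 loci, while the high libraries, numbered 5 to 8, stay with the lower-numbered set. The loci were chosen for the size of this difference.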

How the data were processed

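RNA was sequenced in 12 libraries of sorted mouse kidney cells, grouped by sample title. The deposited table gives, for each transcript, an estimated count of its fragments without normalization, with mm9 positions. Bowtie2, HTSeq, DESeq2 and mm9 are named by the submitters' processing notes, without roles or versions. The label of the deposited table also includes the program name CuffDiff2. How fragments were divided between transcripts or assigned to strands is not described further in the sources used here. Between 35.0% and 44.1% of a library's values for these transcripts were whole within 0.01.

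Estimated counts were rounded and fitted with edgeR 4.0.16 in R 4.3.3: TMM normalization, the filterByExpr filter, robust quasi-likelihood dispersions, 12 libraries in 4 groups, and diffSpliceDGE with 1 F test per locus over 5210 loci. P-values were two-sided and adjusted by the Benjamini-Hochberg method. DESeq2 1.42.0, limma 3.58.1 (log2 ratios with pseudocounts of 0.5 and 5) and the settings of the closing section were alternatives. The fit was tested on simulated data. With 1 dispersion for all transcripts it found nearly all large planted changes. With a dispersion for each transcript it found fewer and called unchanged loci more often than the threshold implies, so calls are read with their share differences and the other tools.

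The planned naming rule took, per comparison, up to 6 loci by size of the share difference. It asked for a locus and a transcript adjusted p under 0.05, at least 10 points and shares that do not overlap (the last not for the interaction). Loci were passed over where 1 library of a group listed the transcript at 0 or 100% and another differed by over 20 points. That rule named 1, 1, 2, 0 and 1 loci, and the remaining loci were named after their values were seen, by the same rule without the transcript p. In all 21 loci were named, and 2 eligible loci were passed over between control high and control low and 1 between mutant high and mutant low. The members and lists were chosen with earlier results of these data known. The planned gene lists and cell markers were not analysed here, because no symbols could be matched to the identifiers.

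Title numbers were not used as pairs in the main fit, and whether they mark pairs is not known. Correlations of deviations between same-numbered low libraries were 0.079 to 0.378, and 2 of the 8 low libraries correlated best with their own number. Wilson intervals at 95% on the shares of named loci were at most 5.56 points on either side, and they and the limits beside counts of 0 cover counting error only.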

Additional observations from a re-analysis of the deposited data

Results flagged for a closer look

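Named loci were examined for a low library that stood far from the other 3 of its group, by Dixon's criterion, and for mutant effects that differed between high and low cells. In 42 groups of 4 libraries, 3 held such a library, and chance gives about 1 in 20. At chr4:47366176-47427796 one control low library had a share of 21.7%, and the others 99.7% to 99.8%. At chr9:108250161-108294860 a mutant low library had 84.5%, against 64.7% to 66.7%. At chr9:110624588-110649649 a mutant low library had 0.236%, against 2.56% to 2.93%.

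By the interaction test of edgeR, the effect of the mutant depended on the sorted population at 6 named loci. The difference of effects was 98.5 points for uc009clz.1 at chr6:83004646-83007676, -53.8 points at chr7:52118437-52125158, -48.9 points at chr4:47366176-47427796, -39.7 points at chr11:95133166-95171560, -28.9 points at chr5:52541447-52581758 and 12.9 points at chr11:69156774-69182928.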

How the results depend on the processing

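The counts of called loci depended on the tool and on single libraries, and in most cases the cause was not tested. In the order mutant against control in low cells, in high cells, high against low in controls, in mutants, and the difference of mutant effects, the counts were 8, 10, 42, 17 and 7. Leaving out 1 library gave 2 to 8, 5 to 36, 23 to 55, 8 to 27 and 2 to 12. In the low comparison the lowest counts came without control low replicates 2 and 3 (2 each), in high cells the highest without control high replicate 1 (36), in mutants the highest without mutant high replicate 2 (27), and for the difference of effects without mutant high replicate 1 (2) and control high replicate 1 (12). Simes combination of transcript tests gave 4, 2, 11, 0 and 1, limma with pseudocount 0.5 gave 0, 6, 14, 1 and 1, and with pseudocount 5 gave 0, 4, 23, 2 and 3. DESeq2 gave 2 in low and 17 in high cells. Fitting only the groups compared gave 3 in low and 35 in high cells. No filter on low counts gave 6 in high cells, 9 in mutants and 3 for the difference of effects, where more loci were tested, and a mean share of at least 5% gave 5 in low cells and 8 in mutants. Of loci with at least 500 fragments in every library, fewer by construction, 2, 4, 16, 7 and 3 were called.

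The replicate block of title numbers gave 29 in low cells, 29 in high cells and 24 for the difference of effects. That of description numbers, over 8 libraries, gave 9 in controls and 1 in mutants. Correlations were not all above 0.1 for title numbers (2 of the 8 low libraries correlated best with their own), and for description numbers in high and low libraries they were -0.124 to 0.093. The labels do not say whether a shared number marks a shared animal. Settings chosen after seeing the data were these. A term for low libraries with description number above 7 gave 17 in high cells, and leaving those 4 libraries out gave 18 in high cells, 25 in controls, 11 in mutants and 11 for the difference of effects. Within low libraries up to 7 there were 27 mutant calls, within those above 7 there were 50, and a fit of low libraries with a term gave 3. Merging transcripts of the same span gave 3 in low cells, 9 in mutants and 3 for the difference of effects. RLE normalization kept all 5 counts within 1.5 times.

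Of 658 refits of the 27 named results, 389 kept the call, 269 lost it and 0 reversed. The chromosome 6 locus of uc009clz.1 kept its 3 calls in all of its refits. With 2 libraries in each high group, a share that differs there rests on 4 values.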

Other observations

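A few called loci had libraries of 1 group far apart. At chr19:41997469-42007804 on the minus strand, 1 transcript held 99.8%, 3.61%, 0.696% and 0% in control low, 99.8% to 99.9% in mutant low, 0% and 99.8% in control high, and 0% in both mutant high libraries. The locus was called between mutant high and mutant low and passed over in naming, because libraries of a group disagreed. At chr5:104121438-104284341 on the plus strand, mutant low libraries 3 and 4 held 25.7% and 33.8% of a transcript that the other 10 libraries held at 97.1% to 99.0%. At chr11:23387881-23397946 on the minus strand, mutant low libraries 1 and 3 held 70.1% and 71.2% of a transcript that the other 10 held at 0.455% to 0.938%. These 3 loci were chosen after their values were seen.

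At chr12:80257003-80273445 on the minus strand a transcript held 18.5% and 26.2% in control high and 13.6% and 12.5% in mutant high, against 0% to 4.33% in control low and 0% in all 4 mutant low libraries. High and low cells did not overlap at this locus in either genotype. It was called between mutant high and mutant low (edgeR adjusted p = 0.0329) but not between control high and control low (edgeR adjusted p = 0.0833).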
